A study of Mus musculus with 42 samples.

Results

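The comparison described here is that of macrophages labelled Irf5 KO with wild-type (WT) macrophages under palmitate, and its members are all libraries whose labels name palmitate as the treatment, whatever their values. There are 12 such libraries among the 42 of the series: 3 KO and 3 WT after 2 h of palmitate, and 3 KO and 3 WT after 24 h. The 12 libraries of Control cells at 2 h and 24 h and the 12 of LPS-treated cells at the same times serve only to show where palmitate differs. The cells were bone-marrow-derived macrophages (BMDM), grown from marrow precursors of male mice aged 7 to 10 weeks for 8 to 10 days in medium conditioned by L929 cells, which supplies the growth factor M-CSF. The KO mice carried floxed Irf5 alleles and a Cre recombinase placed in the Lyz2 locus (LysM-Cre), which is active in macrophages and neutrophils. Their controls are labelled WT, and whether these were littermates or carried Cre or floxed alleles is not given in the sources used here, so an effect of the Cre allele cannot be told apart from one of the loss of Irf5. The labels do not say whether the 3 libraries of a group came from separate mice. They also do not say whether libraries of different times or treatments came from the same mice. The p-values below thus measure only the spread between libraries.

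IRF5 is a transcription factor of the interferon regulatory factor family. It is held inactive in the cytoplasm of resting macrophages and enters the nucleus after Toll-like receptor signalling, where it drives inflammatory cytokine genes. Palmitate, a saturated fatty acid, is used on cultured macrophages to model the lipid load of obesity, since it feeds mitochondrial fatty acid oxidation and can also set off inflammatory and stress responses. The question of the comparison is which transcripts differ between the genotypes when the cells face this load.

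Each library held between 5248827 and 6644456 counts assigned to genes, so that 3 counts correspond to 0.452 to 0.572 CPM (the count scaled to the total of the library). In all 12 pairs of libraries from 1 group the counts differed by more than counting noise (chi-square over its degrees of freedom 2.43 to 6.21). The first principal component, 25.6% of the variance, separated 2 h from 24 h. KO 2 h library 3 stood apart on the second component and held 376 CPM of 10 summed fibroblast and stromal markers, against 2.09 to 49.8 CPM in the other 11 libraries; 2 defining members, Dcn and Lum, had no count in any of the 12. WT 24 h library 2 stood apart on the fourth component. Of the 10 macrophage markers all were detected, and without Lyz2 they summed to between 5479 and 6155 CPM in every library. Counts called without either of these libraries are given beside the main result.

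Irf5, the targeted gene (chr6:29526625-29541871, mm10), was not lower in the libraries labelled KO. At 2 h it read 294, 284 and 279 CPM in KO and 283, 282 and 267 CPM in WT. At 24 h it read 282, 292 and 267 CPM in KO and 224, 232 and 220 CPM in WT. The groups overlapped at 2 h, and at 24 h all 3 KO libraries lay above all 3 WT libraries. Over both times the log2 fold change was 0.18 ± 0.05 (SE, 6 libraries against 6), with an adjusted p of 0.0617 in edgeR's quasi-likelihood test; at 24 h alone it was 0.31 ± 0.06 with an adjusted p of 0.0119. The table counts reads over the whole gene, so reads from a transcript that lacks only the floxed exons would still be counted, and the level does not check the deletion itself. The level of Irf5 thus does not show the deletion and cannot test the label. Every direction below compares libraries labelled KO, called KO for short, with libraries labelled WT. No member of the IRF family passed the test over both times (edgeR called 0 of 7 tested, with 2 at an unadjusted p under 0.05, while DESeq2 called 1, Irf5 itself; Irf5 was also called higher in 5 other alternatives, with an adjusted p of 0.0175 in 1 model over all 42 libraries, 0.0139 with all genes that had at least 1 count, 0.0164 with GC and length offsets, 0.0483 without WT 2 h library 1 and 0.0333 without both libraries that stood apart), and Irf3, which drives type I interferon genes, had a log2 fold change of 0.34 with an adjusted p of 0.15.

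The Lyz2 locus, which houses the Cre, gave the clearest difference. Lyz2 encodes the M lysozyme of macrophages, an enzyme that cleaves bacterial cell walls. Its level was 4814, 5429 and 4677 CPM in KO and 8016, 9078 and 9355 CPM in WT at 2 h, and 5877, 5743 and 5698 CPM in KO against 10838, 12047 and 10274 CPM in WT at 24 h. Every KO library lay below every WT library. The fold change was 0.543 (log2 fold change -0.88 ± 0.04, adjusted p = 6.01e-14). Lyz1, the neighbouring gene for the P lysozyme known from Paneth cells, moved the other way. It read 30.6, 29.2 and 37.04 CPM in KO and 10.3, 8.35 and 6.59 CPM in WT at 2 h, and 31.6, 30.4 and 31.5 CPM in KO against 9.33, 6.46 and 9.55 CPM in WT at 24 h. The groups did not overlap, and the fold change was 3.75 (log2 fold change 1.91 ± 0.12, adjusted p = 3.37e-12).

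The paralogs lie side by side on the minus strand, Lyz2 at chr10:117277331-117282321 and Lyz1 at chr10:117287797-117292868. Their coding sequences of 447 bases each differ at 22 positions, an identity of 95.1%, so a misplaced read could in principle move counts from one to the other. Of the 1164 windows of 100 bases, the read length, in the Lyz1 transcript, 24 also occur in that of Lyz2 (2.06%). The first 180 coding bases of each, from the GENCODE M21 transcripts, are shown to let the differences be seen, with the bases that differ in capitals.
Lyz1: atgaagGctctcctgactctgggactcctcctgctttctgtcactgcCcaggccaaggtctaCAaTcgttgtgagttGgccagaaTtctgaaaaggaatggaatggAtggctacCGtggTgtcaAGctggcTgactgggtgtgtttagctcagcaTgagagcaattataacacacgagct
Lyz2: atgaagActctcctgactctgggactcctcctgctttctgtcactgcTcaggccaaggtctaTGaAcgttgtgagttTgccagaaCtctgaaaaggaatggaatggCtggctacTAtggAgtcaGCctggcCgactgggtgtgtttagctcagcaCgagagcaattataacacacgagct
In these 180 bases the paralogs differ at 15 positions. How the aligner placed reads that fit both genes is not given in the sources used here, so the levels of this pair carry that uncertainty.

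**Figure D1:**
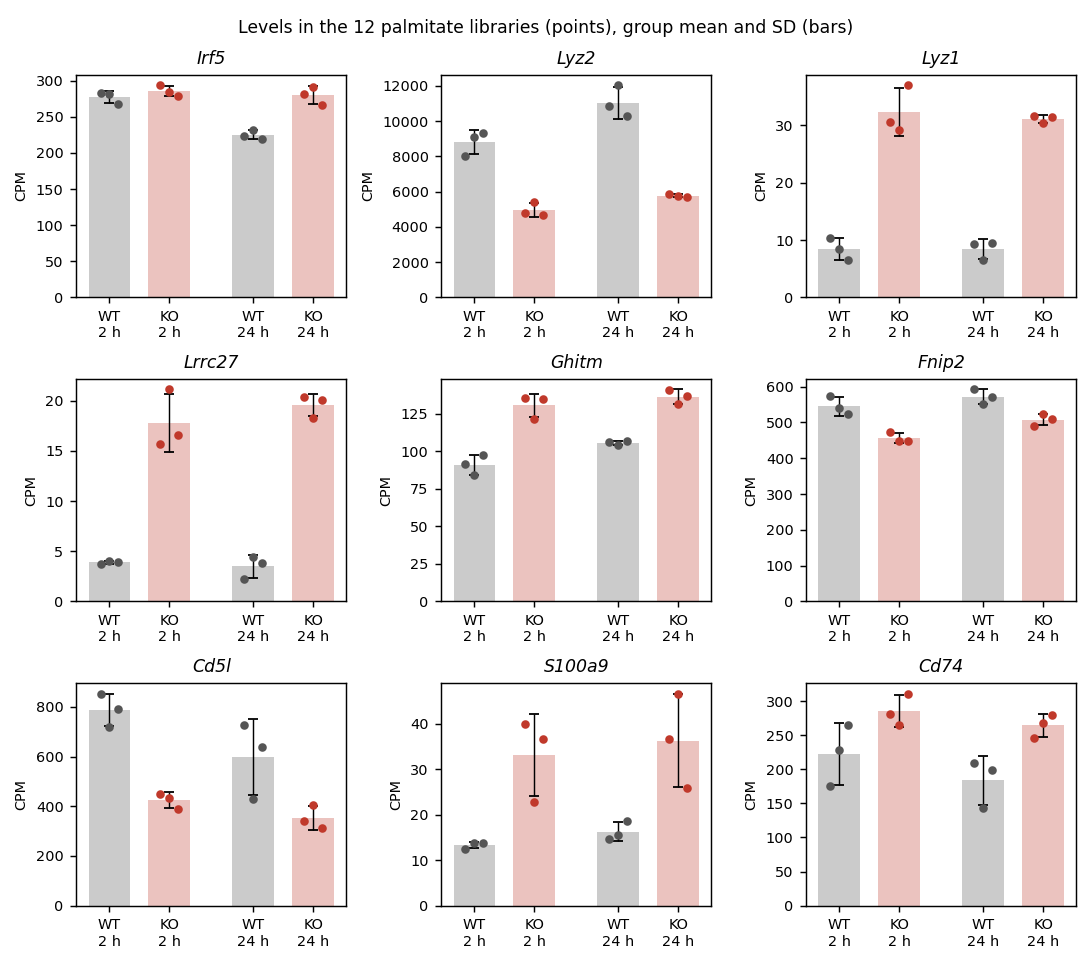
Level in CPM (vertical axes, from 0) of 9 genes in the 12 palmitate libraries; points are libraries, bars group means, error bars SD (n = 3), grey WT and red KO. The KO points of Lyz2 reach 5877 CPM at most and those of WT start at 8016 CPM, while the Irf5 points of the genotypes overlap at 2 h.

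Over both times, with time as a blocking factor, 126 of the 10941 genes tested passed an adjusted p of 0.05 (1.15%), 63 higher and 63 lower in KO (0.576% each). The higher genes had a median log2 fold change of 0.46 and reached 2.34, and 34 of them lay under 0.5. The lower genes changed less, with a median of -0.26 and an extreme of -0.96. All 126 had the same sign at 2 h as at 24 h. At 2 h, 54 of the 63 higher and 56 of the 63 lower genes had 3 KO libraries entirely on 1 side of the 3 WT libraries, against 16.4% of all genes tested. At 24 h these numbers were 49 and 41, against 12.7%. These are the libraries the calls were made on, so the shares describe the calls and do not support them. A complete separation of the 6 KO from the 6 WT libraries was seen for 29 of the 126, and for 77 (0.704%) of all genes tested. With the looser p and stricter size of the study (p under 0.05 with no adjustment, log2 fold change beyond 1 in size), 49 genes were higher (0.448% of those tested) and 0 lower, 14 of them among the 126. At an unadjusted p under 0.05 alone edgeR gave 1383 genes (12.6%). Leaving out KO 2 h library 3 left 77 calls, leaving out WT 24 h library 2 gave 291, and leaving out both gave 194, of which 95 were among the 126. The highest fold changes among genes not called came from single libraries: Col1a1, a fibroblast collagen, had 195 CPM in KO 2 h library 3 and 0 to 21.2 CPM in the others, with an adjusted p of 0.11 and a log2 fold change of 2.96 that became -0.19 without that library.

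**Figure D2:**
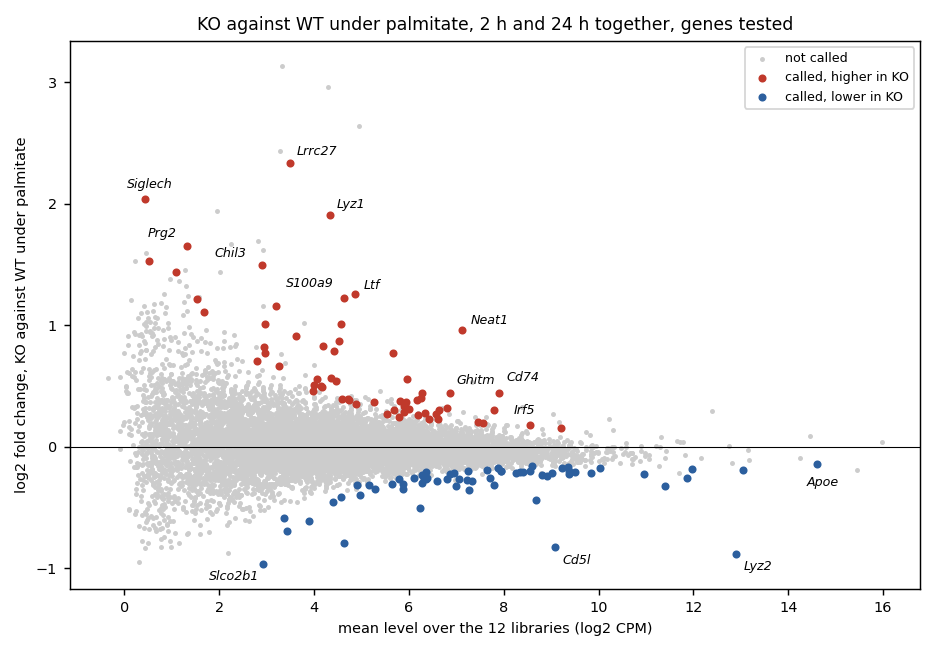
Log2 fold change of KO against WT under palmitate (vertical) against the mean level of each of the 10941 genes tested (horizontal, log2 CPM); red and blue mark the 63 higher and 63 lower called genes, grey the rest. The higher called genes reach 2.34 and are mostly of low to middle level, while the lower ones reach -0.96. Irf5 is labelled though not called.

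Of the 6 genes the study singled out, 3 passed the test, which set no bound on the size of the change. In this comparison only Lrrc27 of these also exceeded the study's bound of 1 in log2 size. Ghitm, which encodes a protein of the mitochondrial inner membrane tied to cristae structure, read 135, 121 and 135 CPM in KO and 91.2, 84.3 and 97.2 CPM in WT at 2 h. At 24 h it read 141, 131 and 136 CPM in KO and 106, 104 and 107 CPM in WT. All 6 KO libraries lay above all 6 WT libraries, by 1.36-fold (log2 fold change 0.44 ± 0.05, adjusted p = 3.26e-06). Lrrc27, a leucine-rich repeat gene of little known function, read 15.7, 21.1 and 16.6 CPM in KO and 3.75, 3.99 and 3.92 CPM in WT at 2 h, and 20.3, 18.3 and 20.04 CPM in KO against 2.25, 4.43 and 3.78 CPM in WT at 24 h. The KO libraries again lay above all WT libraries, by 5.06-fold (log2 fold change 2.34 ± 0.15, adjusted p = 1.19e-11), the largest log2 fold change among the 126. It overlaps Stk32c on the other strand, and whether the counting used strand is not given in the sources used here, so reads of the pair may be mixed. Fnip2, a partner of folliculin in nutrient sensing at the lysosome, read 472, 449 and 448 CPM in KO and 575, 540 and 523 CPM in WT at 2 h, and 491, 524 and 510 CPM in KO against 593, 552 and 571 CPM in WT at 24 h. The genotypes were apart at each time, and over both times only the highest KO library, at 524 CPM, passed the lowest WT library, at 523 CPM, with a log2 fold change of -0.21 ± 0.04 (adjusted p = 0.0042).

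The other 3 did not pass. Abcg1, a cholesterol exporter, had a log2 fold change of -0.16 ± 0.05 with an adjusted p of 0.135. Syce2, a protein of the meiotic synaptonemal complex, had 0.02 with an adjusted p of 0.981 at only 4.79 to 7.85 CPM. Atf5, a transcription factor of the mitochondrial stress response, had -0.01 with an adjusted p of 0.986, and its libraries pointed in opposite directions at the 2 times: 33.5, 35.6 and 37.9 CPM in KO against 46.9, 46.7 and 37.6 CPM in WT at 2 h, and 33.5, 35.6 and 32.1 CPM in KO against 24.4, 30.6 and 26.7 CPM in WT at 24 h. The test of that difference between times gave 0.60 ± 0.16 on the log2 scale with an adjusted p of 0.683. The study chose these 6 genes partly on data of this series, so their count is not independent evidence of a direction. It also required binding of IRF5 at or before their starts in a public ChIP-seq map of LPS-treated BMDM. That map was not examined here.

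As IRF factors bind GAAA-type elements, the 250 bases before the start of transcription were searched on both strands for the paired element GAAANNGAAA and for the shorter element AANNGAAA, which lies within every pair. The promoters of the 2 called genes with higher levels are shown, as RefSeq gives them for GRCm38.p6 (mm10), each on its gene's strand; capitals mark the shorter element. Ghitm lies at chr14:37135323-37135572 on the minus strand for the farthest upstream of its 3 listed starts, Lrrc27 at chr7:139212738-139212987 on the plus strand for the first of 2.
Ghitm: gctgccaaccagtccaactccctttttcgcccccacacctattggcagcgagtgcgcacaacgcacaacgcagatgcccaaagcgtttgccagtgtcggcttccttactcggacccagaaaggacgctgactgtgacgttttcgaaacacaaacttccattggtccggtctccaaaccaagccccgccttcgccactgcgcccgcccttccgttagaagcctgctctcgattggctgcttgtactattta
Lrrc27: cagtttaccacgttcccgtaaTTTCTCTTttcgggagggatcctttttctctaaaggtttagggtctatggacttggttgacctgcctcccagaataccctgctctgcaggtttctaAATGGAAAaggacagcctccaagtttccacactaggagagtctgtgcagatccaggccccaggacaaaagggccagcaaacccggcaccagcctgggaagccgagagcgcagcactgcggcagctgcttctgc
No window of Ghitm or Fnip2 held either element, and the Lrrc27 window shown held 2 shorter elements. Of all 32851 promoter windows 2.98% held the paired element and 21.3% the shorter element. Among windows of the called higher genes, of which 45 matched a RefSeq symbol, these shares were 1.72% and 18.97% of 58, and among those of the called lower genes, of which 47 matched, 4.76% and 20.63% of 63. Both lie near the share of all promoters, and a match or its absence describes only these letters.

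**Figure D3:**
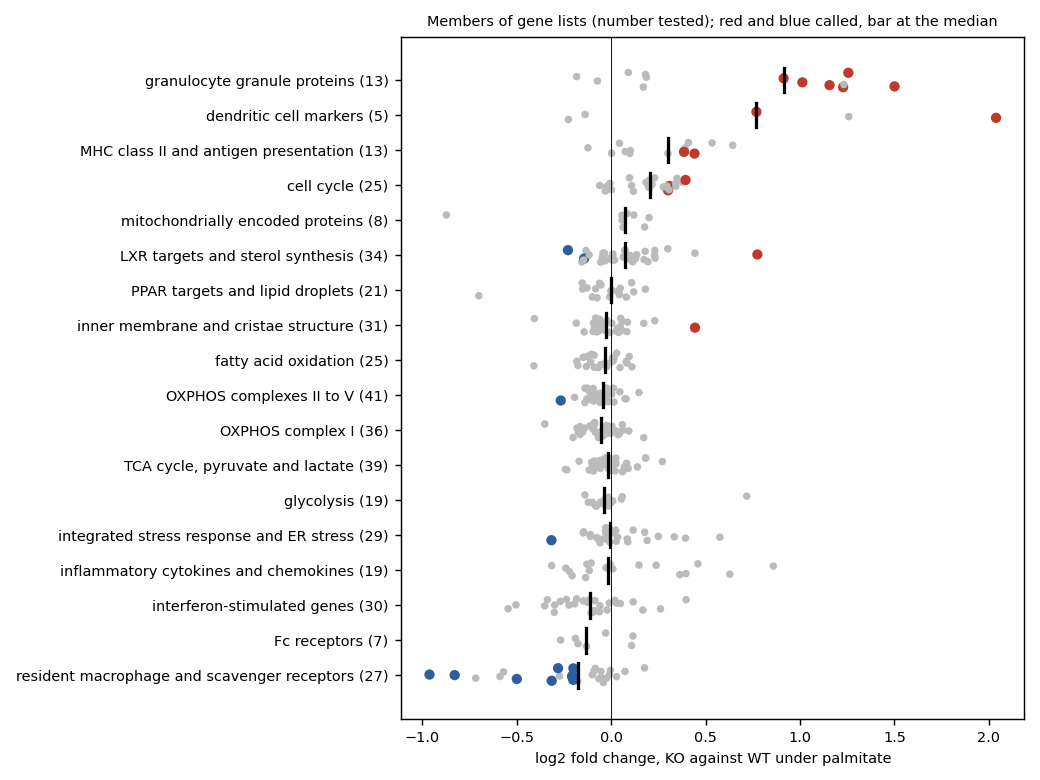
Log2 fold change of KO against WT under palmitate (horizontal) for the tested members of 18 gene lists (vertical, number tested in brackets); red and blue points are called higher and lower, grey points not called, black bars the median. Called members are most numerous in the granule proteins, to the right of 0, and in the resident macrophage list, to the left. The metabolic lists centre near 0.

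The lists below are to be read beside all 10941 genes tested. Of these, 63 were called higher and 63 lower (0.576% each), 5372 lay above 0 and 5569 below. An unadjusted p under 0.05 in edgeR was found for 12.6% of them. Of 30 listed granule proteins of neutrophils 13 were tested and 6 rose (46.2%, against 1.15% of all genes), 0 fell, and the list's median log2 fold change was 0.91 against 0.00 for all genes tested. S100a9, a chain of the calcium-binding alarmin calprotectin, read 39.98, 22.8 and 36.6 CPM in KO against 12.5, 13.9 and 13.7 CPM in WT at 2 h, and 36.6, 46.5 and 25.8 CPM in KO against 14.7, 15.5 and 18.6 CPM in WT at 24 h. Its KO libraries lay above all WT libraries (log2 fold change 1.23 ± 0.14, adjusted p = 1.68e-06). Ltf, the iron-binding lactoferrin of secondary granules, ranged from 27.8 to 51.5 CPM in KO and from 11.2 to 24.9 CPM in WT, again without overlap (1.26 ± 0.14, adjusted p = 2.44e-06). Chil3, a chitinase-like protein, rose 2.83-fold. Lcn2, which binds bacterial siderophores, rose by 1.16, Ngp, a granule protein of the cathelicidin kind, by 1.01, and S100a8, the partner of S100a9, by 0.91 on the log2 scale. Without the 2 libraries that stood apart, 7 granule genes were called higher and 0 lower, and leaving out any 1 library left 6 or 7. The whole list summed to 574 to 662 CPM in KO and 408 to 658 CPM in WT, where WT 24 h library 2 was highest; Bpi and Stfa3 had no count in any of the 12 libraries. Whether a few granulocytes or precursors in the culture gave these reads was not tested, and in bulk libraries more cells of a type and more RNA per cell cannot be told apart.

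Listed genes of tissue-resident macrophages that passed were all lower. Outside the list, and named after its value was seen, the macrophage chemokine receptor Cx3cr1 was called higher. Its log2 fold change was 0.57, and the call held in 3 of the 12 fits that left out 1 library. Of 30 listed resident and scavenger receptor genes 27 were tested, 9 fell (33.3%) and 0 rose, with a list median of -0.18 and 24 members below 0. Cd5l, the secreted apoptosis inhibitor AIM that binds lipids, read 450, 434 and 389 CPM in KO and 852, 720 and 790 CPM in WT at 2 h. At 24 h it read 339, 405 and 314 CPM in KO and 729, 428 and 639 CPM in WT. The genotypes were apart at each time, although WT 24 h library 2 lay below the highest KO library at 2 h, and the log2 fold change was -0.83 ± 0.08 (adjusted p = 1.24e-07). Cd81, a tetraspanin, read from 48.6 to 69.3 CPM in KO and from 72.8 to 107 CPM in WT (-0.50, adjusted p = 0.000457). The others fell by less or varied more: Slco2b1, an organic anion transporter, by 0.96, Siglec1, the sialic acid receptor of metallophilic macrophages, by 0.31, Slc40a1, the iron exporter ferroportin, by 0.28, and C1qb, C1qc, Gas6 and Mrc1 each by 0.20 to 0.21 on the log2 scale. Without the 2 libraries that stood apart, 11 were called lower and 0 higher. Leaving out 1 library left 4 to 11 lower and 0 higher, with 4 without KO 24 h library 3, without WT 24 h library 3 or without WT 2 h library 2, and 5 without KO 24 h library 1. Cd5l and Cd81 were called in all 12 of these fits, Slc40a1 in 11, C1qb in 10, Slco2b1 in 9, Gas6 in 8, Siglec1 in 6, and C1qc and Mrc1 in 4 each. C1qb and C1qc are chains of complement C1q, Gas6 a bridge to dying cells and Mrc1 the mannose receptor. None of the 7 tested Fc receptors passed (0 called by edgeR and by DESeq2, 4 with an unadjusted p under 0.05, median -0.13).

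The MHC class II list, for antigen presentation to helper T cells, leaned the other way. Of 13 tested genes 2 rose (15.4%, against 0.576% of all genes tested), 0 fell and 12 lay above 0, with a median of 0.30. Leaving out 1 library gave 2 to 4 higher, with 4 without KO 2 h library 2 or WT 2 h library 3 and 3 without KO 2 h library 1, WT 24 h library 1 or WT 2 h library 2. Cd74, the invariant chain that fills the peptide groove, read 280, 266 and 311 CPM in KO against 175, 228 and 266 CPM in WT at 2 h, and 246, 267 and 279 CPM in KO against 210, 143 and 199 CPM in WT at 24 h. The lowest KO and the highest WT library lay side by side at 2 h, and the groups were apart at 24 h (0.44 ± 0.08, adjusted p = 0.00301). H2-Ab1, a class II chain, rose by 0.39 (adjusted p = 0.0042) and was not called in 1 model over all 42 libraries. Of 5 tested dendritic cell markers 2 rose: Itgax, the integrin CD11c, by 0.77 and Siglech, a lectin of plasmacytoid dendritic cells, by 2.04 on the log2 scale. Siglech rested on 1 to 25 counts a library and was not called by DESeq2 or without KO 24 h library 3 or WT 24 h library 3, and only Itgax of the list was called without the 2 libraries that stood apart. Siglech passed the count filter only through KO 24 h, with 17, 18 and 25 counts, against 1 to 7 in WT. Its place among the 5 tested is thus not independent of its direction. Itgax lay at 59.4 to 70.4 CPM in KO and at 23.3 to 39.5 CPM in 5 WT libraries, with 61.6 CPM in WT 24 h library 2. The 11 dendritic cell markers summed to 72.0 to 83.5 CPM in KO and 37.5 to 66.6 CPM in WT. Most of each sum was Itgax itself, so the sums largely repeat its values and do not show a shift of the list. Prg2, an eosinophil granule protein, rose by 1.65 at 0.57 to 6.06 CPM, 1 of 4 tested mast cell and eosinophil markers. Prg2 too passed the filter only with the KO libraries, at 11 to 39 counts there and 3 to 13 in WT. No B cell (3 tested) or T and NK cell marker (1 tested) passed, and the part of any such cells in the results was not tested.

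Of 25 cell cycle genes 3 rose (12%, against 0.576% of all genes tested), 0 fell and 20 lay above 0, with a median of 0.20. At 2 h the 25 genes summed to 1266 to 1374 CPM in KO and 1029 to 1136 CPM in WT. At 24 h the sums overlapped, at 1140 to 1214 CPM in KO and 1110 to 1260 CPM in WT. Without the 2 libraries that stood apart 2 were called higher. Mki67, the proliferation marker, ranged from 211 to 302 CPM in KO and from 168 to 229 CPM in WT (0.30 ± 0.05, adjusted p = 0.00246). Top2a, the topoisomerase of dividing cells, rose by 0.31 and Kif11, a spindle motor, by 0.39 on the log2 scale. Mki67 and Top2a were called in all 12 fits that left out 1 library, and Kif11 in 3.

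Metabolic genes mostly did not pass, which also holds for all genes tested. Of all genes, 1.15% were called and 12.6% had an unadjusted p under 0.05 in edgeR. Of 36 complex I subunits of the respiratory chain 0 were called (5 at an unadjusted p under 0.05, 0 by DESeq2, median -0.05), and of 41 subunits of complexes II to V 1 was called, Cox6a1 of cytochrome oxidase, which fell by 0.27 from 55.8 to 65.1 CPM in WT to 42.5 to 56.4 CPM in KO and was called in 2 of the 12 fits that left out 1 library and not without the 2 that stood apart. Of the 8 tested proteins encoded by mitochondrial DNA 0 passed by edgeR or DESeq2 (4 at an unadjusted p under 0.05), with a median of 0.07, while without the 2 libraries that stood apart 2 were called higher and 1 lower; the mitochondrial share of counts was 9.13% to 10.9% in KO and 8.70% to 9.70% in WT. Among 31 genes of the inner membrane and cristae, Ghitm was the 1 called, and the median of the list was -0.03. Neither edgeR nor DESeq2 called a gene among 25 of fatty acid oxidation (3 at an unadjusted p under 0.05), 21 PPAR targets and lipid droplet genes (3), or among 39 of the TCA cycle, pyruvate and lactate (2) and 19 of glycolysis (3). Of 34 LXR targets and sterol synthesis genes, the lipid carriers Pltp and Apoe fell by 0.23 and 0.14 on the log2 scale. Pltp was called in all 12 fits that left out 1 library, and Apoe in 3. Among 29 stress response genes Sesn2, a leucine sensor, fell by 0.32 (adjusted p = 0.0373), a call held in 2 of those 12 fits.

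No listed cytokine, chemokine or interferon-stimulated gene passed under palmitate. Of 19 tested cytokines and chemokines 0 were called by edgeR or DESeq2 (5 at an unadjusted p under 0.05, median -0.02), with Ptgs2, the inducible cyclooxygenase, nearest at 0.63 and an adjusted p of 0.0931, and Il1rn, the interleukin 1 receptor antagonist, at -0.31 and 0.252. The list does not hold all such genes: outside it, and named after their values were seen, the chemokine Ccl6 was called lower at -0.32 and Il18rap, a chain of the interleukin 18 receptor, higher at 1.44, each in 4 of the 12 fits that left out 1 library. Of 30 interferon-stimulated genes 0 were called by either tool, 1 had an unadjusted p under 0.05, and 23 lay below 0 with a median of -0.11.

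Beyond the lists, the 12 highest-ranked genes of each direction included Afdn, a scaffold of cell junctions, which rose by 0.34, and Vwf, the clotting protein of endothelium and platelets, which rose by 0.79 (adjusted p = 0.00171). Those that fell included 2 noncoding RNAs, Rn7sk, which restrains transcription elongation, by 0.32 from 2812 to 3343 CPM in WT to 2138 to 2769 CPM in KO, and Rmrp, the RNA of RNase MRP, by 0.44. Vcam1, an adhesion molecule, fell by 0.79, Dcxr, a sugar reductase, by 0.61, and Sdc3, Aplp2 and Selenop, for a syndecan, an amyloid precursor relative and the selenium carrier, each by 0.22 to 0.24 on the log2 scale. Rmrp, Selenop, Cd81, Pltp and Afdn overlap genes on the other strand, so their counts may hold reads of those. In the 10 Mb around Irf5, 1 of 64 tested genes was called, a share of 1.56% that lies near the 1.15% of all genes tested. It was Akr1b8, an aldo-keto reductase, which fell by 0.35 (adjusted p = 0.000278). Its level was 123 to 231 CPM in WT and 92.6 to 172 CPM in KO, with the genotypes apart at each time. In the 10 Mb around Lyz2, 3 of 63 were called (4.76%), of which 2 were the lysozymes. The other was Zfc3h1, an RNA surveillance factor that rose by 0.44. It was called in 4 of the 12 fits that left out 1 library and not by DESeq2. Whether sequence carried along with the altered loci has a part in these values was not tested.

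The called genes also differed in the make-up of their transcripts. Over the longest transcript of each gene, the median GC content was 46.6% for the higher genes, 54.5% for the lower and 49.5% for all tested, with a median length of 4028, 2657 and 3419 bases. Per library, the mean log2 level of the 1077 genes richest in GC minus that of the 1077 poorest, relative to the mean of the 12 libraries, was 0.08 to 0.11 in WT at 2 h and -0.01 to 0.03 in KO, without overlap, and overlapped at 24 h (-0.06 to 0.04 in WT, -0.13 to -0.00 in KO). With per-library offsets for GC content and length, made without the genotype and added after seeing the data, 116 genes were called, 98 of them among the 126.

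**Figure D4:**
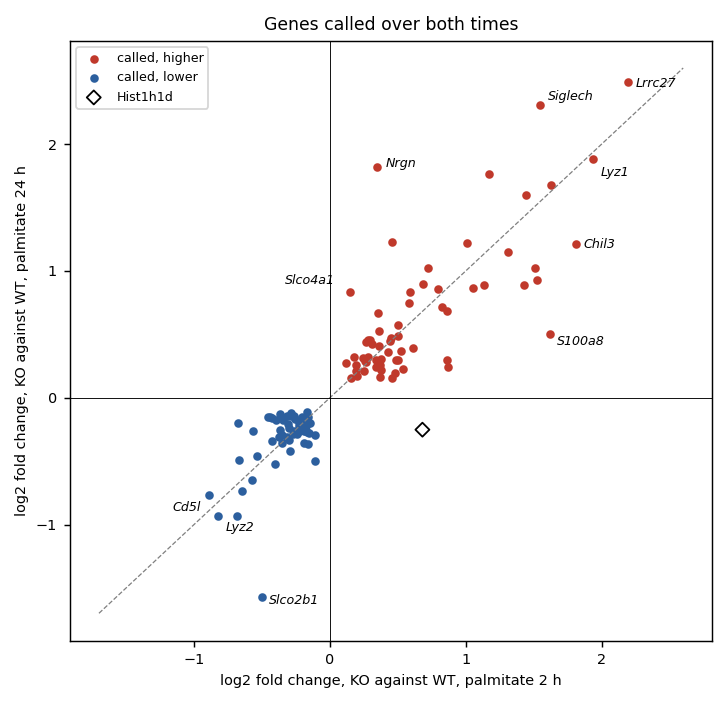
Log2 fold change of KO against WT at palmitate 24 h (vertical) against that at 2 h (horizontal) for the 126 genes called over both times, red higher and blue lower, with the dashed line marking equal values and the open diamond Hist1h1d. All 126 points lie in the quadrants of equal sign, and Hist1h1d, at 0.68 and -0.25, does not.

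By time, 43 genes passed at 2 h (0.393%), 26 higher (0.238%) and 17 lower (0.155%), and 17 at 24 h (0.155%), 11 higher (0.101%) and 6 lower (0.0548%). Of these, 8 passed at both in the same direction, which is 18.6% of the first list and 47.1% of the second. Slco4a1, an anion transporter, was highest-ranked at 24 h after the lysozymes and Lrrc27. It read 31.4, 34.6 and 36.6 CPM in KO and 30.7, 26.6 and 35.6 CPM in WT at 2 h, and 139, 89.5 and 124 CPM in KO against 59.3, 74.1 and 64.3 CPM in WT at 24 h. The genotypes overlapped at 2 h and were apart at 24 h (0.84 ± 0.12, adjusted p = 0.000266). Ndrg1, a gene induced by hypoxia and stress, fell by 0.50 at 24 h (adjusted p = 0.0119), where it read 51.2 to 65.7 CPM in KO and 74.1 to 85.6 CPM in WT. The test of whether the genotype difference itself changed from 2 h to 24 h called 1 gene (0.00914%), Hist1h1d, with 589 at an unadjusted p under 0.05 (5.38%) and 1 called by DESeq2, so neither Slco4a1 nor Ndrg1 was shown to differ between the times.

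Set beside the other treatments, the same genotypes gave 236 called genes in Control cells (2.15%), 144 higher (1.31%) and 92 lower (0.838%), and 21 in LPS-treated cells (0.193%), 19 higher (0.174%) and 2 lower (0.0183%). The treatments have no library in common, but whether their libraries came from the same mice is not given in the labels. Of the 126 called under palmitate 49 were called in the same direction in Control, 38.9% of the 126 and 20.8% of the 236. With LPS 11 were shared, 8.73% of the 126 and 52.4% of the 21. Of the 126, 120 had the same sign in Control, against 59.3% of all 10820 genes tested in both, and 109 of the 125 tested under LPS had the same sign there, against 57.6%. The direct tests called 0 of 11263 genes for palmitate minus Control and 0 of 11351 for palmitate minus LPS in edgeR (0% each, with 684, or 6.07%, and 703, or 6.19%, at an unadjusted p under 0.05), while DESeq2 called 0 and 3. For Ghitm the difference was 0.08 ± 0.07 against Control and 0.14 ± 0.08 against LPS, with adjusted p of 0.885 and 0.834. For Lyz2 it was 0.01 ± 0.05 and 0.05 ± 0.08, with adjusted p of 0.998 and 0.965. For Lrrc27 it was 0.10 ± 0.22 and 0.46 ± 0.26, with adjusted p of 0.975 and 0.834. For Cd5l it was -0.01 ± 0.12 and -0.35 ± 0.12, with adjusted p of 0.998 and 0.667. No gene is thus called particular to palmitate, and these errors leave room for differences of their size. Mt1, a metal-binding protein, which was among the 3 highest-ranked lower genes in Control, read 132 to 163 CPM in KO and 133 to 208 CPM in WT under palmitate.

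**Figure D5:**
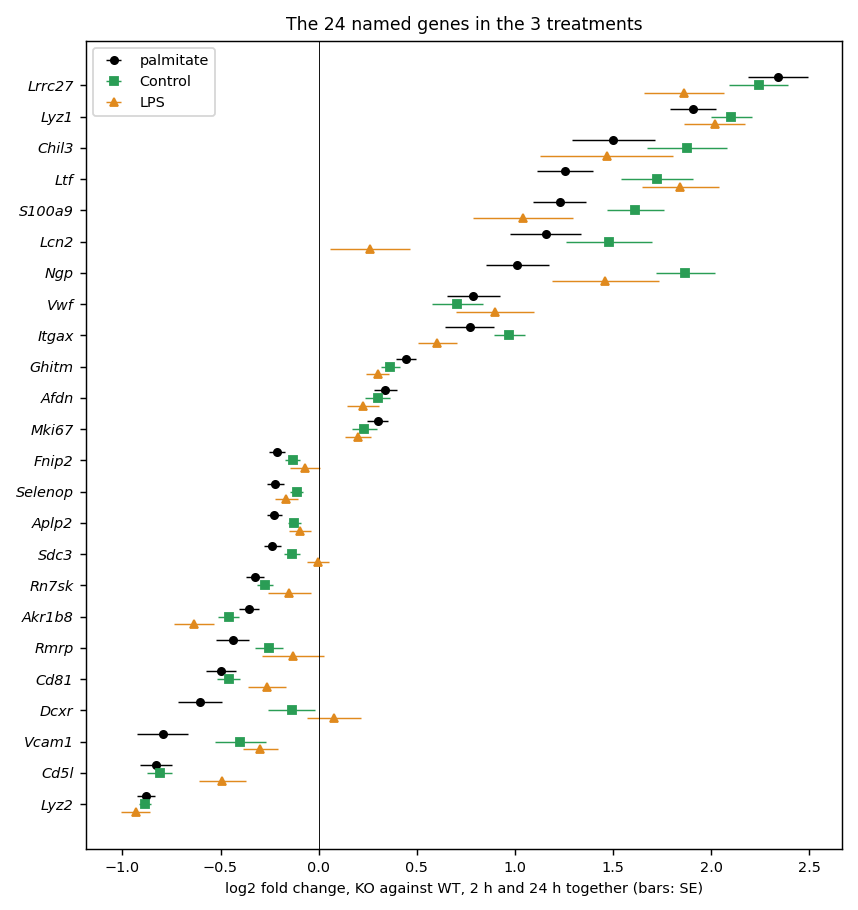
Log2 fold change of KO against WT, 2 h and 24 h together (horizontal, bars SE), for the 24 highest-ranked genes under palmitate (vertical), with black circles for palmitate, green squares for Control and orange triangles for LPS. The 3 points of Lyz2 lie within -0.93 and -0.88, while those of Lcn2 run from 0.26 under LPS to 1.48 in Control.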

How the data were processed

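RNA-seq had been made with a stranded, ribodepleted total RNA kit for low input and sequenced in pairs of 100 bases. The authors trimmed and aligned the reads (STAR 2.7.3a to mm10; fastp 0.19.11 is in the submitters' processing notes) and deposited raw counts per Ensembl gene, 37310 genes by 42 libraries, 5248827 to 6644456 counts in the 12 used here; the annotation release is not given in the sources used here. Column headers repeat within a group, so library numbers are only names.

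Counts were filtered by filterByExpr, scaled by TMM and tested with edgeR 4.0.16 (R 4.3.3), a two-sided quasi-likelihood F test with Benjamini-Hochberg adjustment over all genes tested, 6 KO against 6 WT libraries with time as a block; contrasts by time and between treatments used 1 mean per group. Genes were called at an adjusted p under 0.05. Symbols matched 32620 of 37310 genes. Fold changes are log2, KO minus WT, with SE. On data simulated for the comparison under palmitate (10824 genes, 200 changed) edgeR recovered 86% of 2-fold and 99% of 4-fold changes, with 4.15% of its calls false. With no gene changed it called 2 of 10838. Smaller changes were not simulated, so these shares do not cover most of the 126 calls, of which 14 exceeded 1 in log2 size. Alternatives were DESeq2 1.42.0, RLE scaling, no filter, 1 model over 42 libraries, no time term, the study's threshold and leaving out libraries; leaving out both libraries that stood apart and the GC and length offsets were added after seeing the data. Members and lists were chosen with earlier results of these data known. Named were 9 fixed genes, the 12 best-ranked of each direction with a mean of at least 1 CPM, up to 3 per direction of each other comparison, the called and up to 2 further members of each list, and called genes within 10 Mb of Irf5 and Lyz2. Values of some list members are not reported here.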

Additional observations from a re-analysis of the deposited data

Results flagged for a closer look

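Hist1h1d, which encodes a linker histone, was the 1 gene whose genotype difference changed between the times under palmitate, by the test of the change itself. At 2 h it read 73.1, 85.0 and 94.1 CPM in KO and 60.8, 45.9 and 50.7 CPM in WT, so that KO lay above WT without overlap. At 24 h it read 65.3, 91.3 and 75.6 CPM in KO and 99.2, 84.3 and 93.0 CPM in WT, with overlap. The log2 fold change was 0.68 at 2 h and -0.25 at 24 h, and their difference was -0.93 ± 0.16 (edgeR's quasi-likelihood test, adjusted p = 0.0233). Over 12 fits that each left out 1 library the difference ran from -0.83 to -1.07. In 8 of them it was no longer called, with an adjusted p of up to 0.177. The 4 that kept the call left out KO 24 h library 2, KO 2 h library 1, WT 24 h library 2 or WT 2 h library 1.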

How the results depend on the processing

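No paired analysis was possible because the columns carry no replicate numbers. The cause of the shifts below was not tested. With 1 model over all 42 libraries the calls were 73 under palmitate, 17 at 2 h, 8 at 24 h, 78 in Control and 74 under LPS. With all genes that had at least 1 count they were 296 (191 higher, 105 lower), 162, 90 and 148 for palmitate, 2 h, 24 h and LPS, 35 for the change between times, 23 for palmitate minus Control and 48 for palmitate minus LPS. By the study's threshold they were 49, 108, 83, 121 and 79 for palmitate, 2 h, 24 h, Control and LPS, and 95, 69 and 97 for the change between times and the differences from Control and LPS. Without the time term 9 remained under palmitate. DESeq2 called 163 under palmitate (68 higher, 95 lower), 30 at 24 h, 43 under LPS and 3 for palmitate minus LPS. The 2 h libraries alone gave 96. Leaving out both libraries that stood apart gave 194.

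Leaving out 1 library at a time gave 62 to 291 calls under palmitate, 14 to 75 at 2 h, 6 to 74 at 24 h, 0 to 3 for the change between times, 150 to 317 in Control, 9 to 55 under LPS, 0 to 0 for palmitate minus Control and 0 to 1 for palmitate minus LPS. Under palmitate the count was 67 without KO 24 h library 1, 62 without KO 24 h library 3, 77 without KO 2 h library 3, 77 and 71 without WT 24 h libraries 1 and 3, 291 without WT 24 h library 2, and 72 and 77 without WT 2 h libraries 2 and 3. Of the 126 genes 44 (25 higher, 19 lower) were called in all 12 of these fits, and 0 changed sign. Atf5 turned positive, at 0.0090 with 42 libraries, 0.045 with GC and length offsets and 0.0067 without both libraries, and ran from -0.074 to 0.051 over the fits that left out 1. Syce2 was -0.021 without both libraries and ran from -0.075 to 0.096. Neither was called in any of these. Col1a1 was -0.077 without both libraries and ran from -0.19 to 5.19, called without KO 2 h library 2, without WT 24 h library 2 and with all genes that had at least 1 count. The 9 calls that remained without the time term were Lyz1, Lrrc27, S100a9, Ltf, Ghitm, Chil3, Lcn2, Lyz2 and Cd5l, so those of the other genes named were lost. DESeq2 did not call Prg2, Siglec1, Siglech, Zfc3h1 or Slco4a1, and the fit with GC and length offsets did not call Apoe, Kif11, Sesn2, C1qc or Cox6a1. The model over all 42 libraries did not call Rn7sk, Rmrp, Top2a, H2-Ab1, Slc40a1, Mrc1, Siglec1, Gas6, C1qc, Slco4a1, Siglech, Apoe, Kif11, Sesn2, Zfc3h1 or Cox6a1.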

Other observations

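The groups in this section were chosen after their values were seen, so their counts are descriptions with no test. Of all 10941 genes tested, 63 were called higher and 63 lower (0.576% each), 5372 lay above 0 and 5569 below. An unadjusted p under 0.05 in edgeR was found for 12.6%. All 10 tested megakaryocyte and platelet genes lay above 0 under palmitate, with a median log2 fold change of 0.81, and 4 were called higher by edgeR and 2 by DESeq2. Leaving out 1 library gave 2 to 5, with 2 without KO 24 h library 1 or 2, WT 24 h library 1 or 3 or WT 2 h library 1. Besides Vwf these were Itgb3 and Itga2b, the chains of the platelet fibrinogen receptor, at 0.87 and 0.83, and Nrgn, a calmodulin-binding protein, at 1.01, and Itga2b was called in 5 and Nrgn in 6 of these 12 fits. Itgb3 ranged from 20.8 to 39.8 CPM in KO and from 10.5 to 26.6 CPM in WT. The 16 listed genes summed to 123 to 243 CPM in KO and 92.9 to 168 CPM in WT, and the part of such cells in the result was not tested. Of 17 tested integrin subunits 5 were called higher and 0 lower, among them Itgav and Itgal at 0.16 and 0.20, called in 3 and 4 of the 12 fits that left out 1 library. The count of integrins was 2 without KO 24 h library 1, WT 24 h library 3 or WT 2 h library 3, 4 without KO 24 h library 2, 5 without WT 24 h library 2 and 3 without each of the others.

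Of 5 noncoding RNAs made by RNA polymerase III, 3 were called lower: Rn7sk, Rmrp and Rpph1, the RNA of RNase P, at -0.25. Rpph1 lies within another gene, so its reads may be mixed with those. Of 28 splicing factors 24 lay above 0 and 4 were called higher: Hnrnph1 at 0.40, Prpf4b at 0.27, Srsf1 at 0.26 and Hnrnpa2b1 at 0.18. This count was 1 to 5 when 1 library was left out, with 1 without KO 24 h library 1, KO 2 h library 2, WT 24 h library 3 or WT 2 h library 3 and 2 without KO 24 h library 3, KO 2 h library 3, WT 24 h library 1 or WT 2 h library 2. Of 29 lysosomal proteins 25 lay below 0 and 3 were called lower: Pld4 at -0.25, Psap at -0.19 and Pld3 at -0.16. The fits that left out 1 library gave 2 to 5, with 5 without WT 24 h library 2, 4 without KO 24 h library 2 or WT 2 h library 1 and 2 without any other, and Pld3 was called in 3 of the 12 fits. Of 81 cytosolic ribosomal protein genes 80 lay below 0, with a median of -0.10, 41 at an unadjusted p under 0.05 and 2 called lower, Rplp1 and Rplp0 at -0.22 and -0.17, while DESeq2 called 7. The number called lower was 0 to 10 when 1 library was left out, with 10 without WT 24 h library 2, 7 without KO 24 h library 2, 0 without KO 2 h library 2 or WT 2 h library 2 and 1 without KO 24 h library 1 or 3, WT 24 h library 1 or WT 2 h library 3.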
